A study of Homo sapiens with 4 samples.

Results

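The AHCY locus on chromosome 20 and the genes of the methionine cycle were examined in SK-N-SH cells that overexpressed the long non-coding RNA AP1AR-DT. The 8 genes, of 24014 in the table of counts, were AHCY, RP4-785G19.5, AHCYL1, AHCYL2, MAT2A, MAT2B, MTR and MTRR, each found by its symbol. RP4-785G19.5 was selected on the difference of its own counts between the groups, and AHCY was included because the pair overlap. Their differences are therefore given as a description, with no test. The other 6 genes were included for their place in the cycle or for their likeness to AHCY.

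SK-N-SH is a neuroblastoma cell line of human origin, in which neuroblast-like and substrate-adherent cells grow together. The cells of the control group (2 libraries, titled WT, of wild type genotype) had received an empty lentivirus, and in the AP1AR-DT_OE group (2 libraries) they carried a lentivirus with AP1AR-DT, which the labels call AC109347.1. The genotype label of AP1AR-DT_OE 2 gives a different name, AC109347.2, and its title was followed. Nothing in the labels says that the libraries came from separate cultures, so p-values rest only on the spread between these libraries, which may be technical. For each gene that spread is drawn in part from genes of like level.

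The methionine cycle supplies the methyl groups of the cell. Methionine adenosyltransferase makes S-adenosylmethionine from methionine, methyltransferases use it and release S-adenosylhomocysteine, and adenosylhomocysteinase, the product of AHCY, splits that inhibitor into homocysteine and adenosine. Methionine synthase, the product of MTR, then turns homocysteine back into methionine with cobalamin as its cofactor, and methionine synthase reductase, the product of MTRR, keeps that cofactor active. In neurons and neuroendocrine cells the same methyl donor serves the methylation of catecholamines, lipids, RNA and histones.

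RP4-785G19.5 (ENSG00000250917) is annotated as a lncRNA on the minus strand of chromosome 20, from 34234840 to 34281173 in the GRCh38 positions of the deposited table. AHCY (ENSG00000101444) lies on the same strand from 34280268 to 34311802. The transcript of RP4-785G19.5 has 3 exons and 478 bases, and its span runs downstream of AHCY. Its first exon, of 147 bases, lies over the last exon of AHCY. Of these bases, 139 are AHCY exon, namely the last 129 coding bases, the 3 bases of the stop codon and the start of the untranslated part, and 8 lie in the intron before that exon. The other 2 exons, of 140 and 191 bases, have no base in common with an AHCY exon. Exon sequence shared with AHCY made up 29.08% of the transcript. The sequences are shown because they set out which bases a read could share with AHCY and which it could not. They are from GENCODE v44 transcripts mapped to GRCh37, the build of the alignment, and run 5′ to 3′ on the minus strand. Capitals mark the AHCY coding sequence and its stop codon, and the first sequence stops at that codon.

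RP4-785G19.5 exon 1, chr20:32868840-32868979 (GRCh37): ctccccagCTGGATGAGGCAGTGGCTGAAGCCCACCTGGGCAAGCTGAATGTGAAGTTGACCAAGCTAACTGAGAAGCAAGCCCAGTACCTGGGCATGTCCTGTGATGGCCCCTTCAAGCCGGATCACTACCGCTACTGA
RP4-785G19.5 exon 2, chr20:32837805-32837944 (GRCh37): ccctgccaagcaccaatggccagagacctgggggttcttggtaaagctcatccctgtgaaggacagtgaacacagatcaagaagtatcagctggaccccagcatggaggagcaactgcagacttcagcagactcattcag
RP4-785G19.5 exon 3, chr20:32822646-32822836 (GRCh37): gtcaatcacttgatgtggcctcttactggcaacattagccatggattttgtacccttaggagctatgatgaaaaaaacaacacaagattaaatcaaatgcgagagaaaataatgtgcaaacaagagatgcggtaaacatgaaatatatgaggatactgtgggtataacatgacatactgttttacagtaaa

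The coding part is the end of the AHCY reading frame, and its bases alone cannot tell a read from an AHCY read. The read length that the study gives for these cells is longer than this part. A full-length read over it thus also covers other bases. Exon 1 and exon 2 are joined across 31035 bases of genome from 5′ end to 5′ end. The table gives 1 count per gene, so how many reads fell in each exon was not analysed here.

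**Figure D1:**
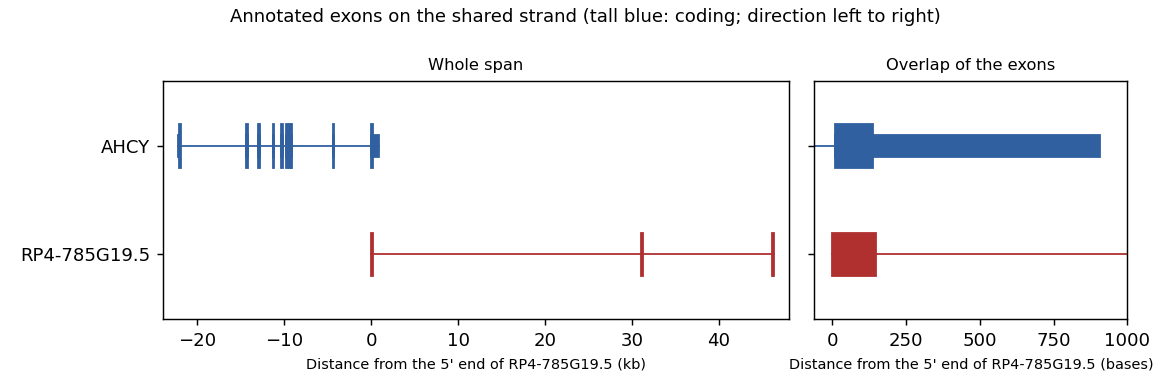
Annotated exons of AHCY (the canonical transcript, blue, tall boxes coding) and RP4-785G19.5 (red), drawn by distance from the 5′ end of RP4-785G19.5, in kb on the left and in bases on the right. In the left panel the thinnest exons are widened to be visible. The first of the 3 red exons lies over the coding end of the last AHCY exon, and the other 2 lie downstream.

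The libraries held between 21988065 and 26184599 counts. Low values of the table piled up at multiples of 4 (3287 entries were 4, against 2136 at 3 and 1509 at 5), so a pair of reads was taken as about 4 counts. This scale was read from the table and is not given in the sources used here, and the floors, fold bounds and intervals of shares rest on it. A count of 0 was taken to allow up to 3 read pairs, or 12 counts. AP1AR-DT had 3 and 18 counts in the control libraries against 680 and 1065 in AP1AR-DT_OE (Log2FC = 6.63, SE = 0.64), in the direction of the labels. The line showed its adrenergic markers: 8 of 10 had a mean normalized count of at least 50 in the 4 libraries, among them HAND2, PHOX2A and GATA3, while TH was not listed. All 10 mesenchymal markers passed the same level. Of 8 glial and blood markers, 2 did so, and PTPRC, HBB and PECAM1 were among those not listed. The summed normalized counts of the adrenergic list ranged from 24268 to 29968 in control and from 26579 to 28824 in AP1AR-DT_OE, those of the mesenchymal list from 154816 to 210420 and from 170946 to 206321, and those of the glial and blood list from 138 to 263 and from 164 to 218. Within the mesenchymal list PRRX1 stood at 2769.9 and 11358 normalized counts in control and 1241 and 2246 in AP1AR-DT_OE (DESeq2 adjusted p = 0.431). The part of cell makeup in the results was not tested.

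AHCY was the most abundant of the 8 genes and was counted at almost the same number in both groups. It had 6239 counts in control 1, 5517 in control 2, 6404 in AP1AR-DT_OE 1 and 5408 in AP1AR-DT_OE 2. Divided by the size factor of each library (normalized read counts), these were 7106 and 4256 in the control libraries against 7024 and 5368 in AP1AR-DT_OE. The AP1AR-DT_OE libraries both lay between the controls, so the groups overlapped. The mean was 5681 ± 2015 (SD, n = 2) in control and 6196 ± 1172 (SD, n = 2) in AP1AR-DT_OE, a Log2FC of 0.13 (SE = 0.46), where Log2FC is the log2 fold change of AP1AR-DT_OE over control. In RNA from whole cultures, fewer cells of a type and less RNA per cell cannot be told apart, and all values are relative to the other genes of a library.

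RP4-785G19.5 had 249 counts in control 1 and 245 in control 2, while each AP1AR-DT_OE library had 0. The normalized read count was 236 ± 66.9 (SD, n = 2) in control. If each 0 stands for at most 3 read pairs, 13.2 and 11.9 normalized counts in the AP1AR-DT_OE libraries, the count was at least 18.8-fold lower. Between libraries with the replicate number 1 it was at least 21.5-fold lower, and between those with number 2 at least 15.9-fold. These folds bound the error of counting only. Whether reads of the shared exon were assigned to AHCY in some libraries was not tested, and the folds do not cover it. The fitted Log2FC of -10.26 rests on counts of 0 and is no bound.

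The counts of RP4-785G19.5 were few beside those of AHCY. They made up 3.84% of the counts of the pair in control 1 (95% Wilson interval from 2.99% to 4.87%) and 4.25% in control 2 (from 3.31% to 5.40%), with counts divided by 4 as read pairs. In AP1AR-DT_OE a share of 0 of 1601 and 0 of 1352 read pairs allows up to 0.187% and 0.222% at 3 read pairs. These intervals and floors hold the error of counting alone, because PCR copies are not independent molecules. They also leave out how reads were assigned between the 2 overlapping genes.

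Because reads in the shared exon could be given to either gene, the rows were also summed. The sum was 6488 and 5762 counts in the control libraries against 6404 and 5408 in AP1AR-DT_OE. In normalized counts it was 5917 ± 2082 (SD, n = 2) against 6196 ± 1172 (SD, n = 2), a Log2FC of 0.07 (SE = 0.46) with a 95% interval from -0.84 to 0.97. Between libraries of the same number the log2 ratio was -0.07 (number 1) and 0.27 (number 2). The locus as a whole thus differed by less than the spread between the libraries. RP4-785G19.5 was so small a share of the pair that its absence could not be seen in the sum at this precision.

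A count of 0 in both AP1AR-DT_OE libraries beside more than 12 in both controls was seen for 13 genes, and the reverse, 0 in both controls and more than 12 in both AP1AR-DT_OE libraries, for 7. RP4-785G19.5 was the 1 gene among the 13 with at least 200 counts in both controls. Among the 7, 1 gene had at least 200 counts in both AP1AR-DT_OE libraries. The same all-or-none contrast was also present inside the groups: 28 genes had 0 counts in 1 control and at least 200 in the other, and 27 did so between the AP1AR-DT_OE libraries. Exon sequence shared with another listed gene on the same strand, as for RP4-785G19.5 and AHCY, was present in 9.04% of all genes. It was present in 7 of the 13 genes and in 5 of the 7 of the reverse pattern. Inside the groups it was present in 25 of the 28 and in 18 of the 27. These counts describe the table and were made after its values were seen.

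Of the 18 genes within 500 kb of AHCY in the table (the members not counted), 0 were called by DESeq2 at an adjusted p under 0.05, and 0 had an unadjusted p under 0.05. Of the 14 that passed the edgeR filter, 0 were called and 0 had an unadjusted p under 0.05. Over the whole table DESeq2 called 0.137% of genes, and 196 had an unadjusted p under 0.05. Of all genes that passed its filter edgeR called 0, so it could call no neighbour, and 112 had an unadjusted p under 0.05. Counts of 0 among so few genes thus say nothing particular of the neighbours. Of the 18, 12 had a mean normalized count of at least 50, and their Log2FC lay between -0.17 (EIF2S2) and 0.16 (PIGU and DYNLRB1, both over 200 kb away and named after their values were seen). EIF2S2, a subunit of the translation initiation factor eIF2, had 207 and 606 normalized counts in the control libraries against 184 and 541 in AP1AR-DT_OE. RALY, an RNA-binding protein gene, had 4441 and 2772 against 4064 and 3390. ITCH, a ubiquitin ligase gene upstream of AHCY, had 133 and 300.1 against 174 and 225.

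ASIP, the agouti signalling gene, is crossed by the span of RP4-785G19.5 on the opposite strand. It had 0 counts in both controls and 3 and 5 in AP1AR-DT_OE, at or under the floor in every library, so its fold is not read. The lncRNA CTD-3216D2.5, inside the AHCY span, had 9 counts in control 2 and 0 elsewhere, and CDC42P1 had 4 in AP1AR-DT_OE 2 and 0 elsewhere. The pseudogene RP4-785G19.2, inside the span of RP4-785G19.5, had 11.4 and 38.6 normalized counts in the control libraries against 12.1 and 28.8 in AP1AR-DT_OE. The pseudogenes XPOTP1 and FDX1P1 had a Log2FC of -0.10 and 0.08 (SE = 0.52 and 0.59). No gene near the locus thus showed the pattern of RP4-785G19.5.

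The AHCY-like proteins AHCYL1 and AHCYL2 resemble adenosylhomocysteinase but are known as regulators rather than as the hydrolase of the cycle. AHCYL1, also called IRBIT, binds inositol trisphosphate receptors and ion transporters. It had 1288 and 2637 counts in the control libraries against 1649 and 1983 in AP1AR-DT_OE. In normalized counts the AP1AR-DT_OE libraries, at 1809 and 1968, lay between the controls at 1467 and 2034 (Log2FC = 0.11, SE = 0.45, DESeq2 adjusted p = 1).

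AHCYL2, a close relative of AHCYL1, was the protein-coding member with the lowest fitted fold change. It had 592 and 856 counts in the control libraries against 499 and 501 in AP1AR-DT_OE. The normalized counts were 674 and 660.3 in the control libraries against 547 and 497 in AP1AR-DT_OE, so both AP1AR-DT_OE libraries lay under both controls. The means were 667 ± 9.86 and 522 ± 35.4 (SD, n = 2), a Log2FC of -0.35 with SE = 0.46 and a DESeq2 adjusted p = 1. Between libraries of the same number the log2 ratio was -0.30 (number 1) and -0.41 (number 2). In these normalized counts the difference was larger than the spread within each group. It did not pass the test, whose error is drawn from genes of like level. AHCYL2 and RP4-785G19.5 were the 2 of the 8 genes whose groups did not overlap, which 9.45% of the 13298 genes at or above a mean normalized count of 50 also showed. All 8 members passed that level.

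The ratio of AHCYL1 to AHCYL2 in normalized counts per kb of transcript was 2.79 and 3.94 in the control libraries against 4.23 and 5.07 in AP1AR-DT_OE. AHCY stood 24.7 and 15.1 times above AHCYL2 on this scale in the control libraries against 30.1 and 25.3 times in AP1AR-DT_OE. In both ratios the AP1AR-DT_OE libraries lay above the controls. These ratios have AHCYL2 in common. With the trend of each library with GC content taken out, the first no longer separated the groups, at 2.53 and 4.41 in control and 3.95 and 5.35 in AP1AR-DT_OE. The second still did, at 18.3 and 21.4 in control and 25.2 and 29.1 in AP1AR-DT_OE. Without that correction, the groups overlapped in the ratio of AHCY to AHCYL1, at 8.88 and 3.84 in control and 7.12 and 5.002 in AP1AR-DT_OE. They also overlapped in that of MTR to MTRR, at 2.33 and 1.67 in control and 2.37 and 1.28 in AP1AR-DT_OE. How often such ratios separate the groups over the table was not counted.

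MAT2A encodes the catalytic subunit of the methionine adenosyltransferase that non-hepatic cells use, and MAT2B its regulatory subunit. MAT2A had 2883 and 2990 counts in the control libraries against 3589 and 2186 in AP1AR-DT_OE. The normalized counts of 3937 and 2170 in AP1AR-DT_OE lay outside the controls (3284 and 2306) on either side, and the Log2FC was 0.13 (SE = 0.48, DESeq2 adjusted p = 1). MAT2B had 328 and 1168 counts in the control libraries against 438 and 651 in AP1AR-DT_OE, with normalized counts of 374, 901, 480.4 and 646. Its AP1AR-DT_OE libraries lay between the controls (Log2FC = -0.18, SE = 0.55, DESeq2 adjusted p = 1).

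The ratio of the subunits differed more between the replicate numbers than between the groups. On the scale of normalized counts per kb, the ratio of MAT2A to MAT2B was 6.44 in control 1 and 6.004 in AP1AR-DT_OE 1, against 1.88 in control 2 and 2.46 in AP1AR-DT_OE 2. After a trend with GC content was taken out of each library, it was 4.93 and 4.84 in the libraries with number 1 and 2.55 and 2.93 in those with number 2. The liver enzyme gene MAT1A had 14 and 16 counts in the control libraries against 12 and 0 in AP1AR-DT_OE, at or near the floor.

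MTR and MTRR, which close the cycle, were the least abundant members per kb. MTR had 545 and 1107 counts in the control libraries against 516 and 769 in AP1AR-DT_OE, or 621, 854, 566 and 763 in normalized counts (Log2FC = -0.15, SE = 0.48, DESeq2 adjusted p = 1). MTRR had 72 and 204 counts in the control libraries against 67 and 185 in AP1AR-DT_OE, or 82.0, 157, 73.5 and 184 in normalized counts (Log2FC = 0.10, SE = 0.69, DESeq2 adjusted p = 1). The groups overlapped for both. Within a number the log2 ratio of MTR was -0.13 and -0.16, and that of MTRR -0.16 and 0.22.

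**Figure D2:**
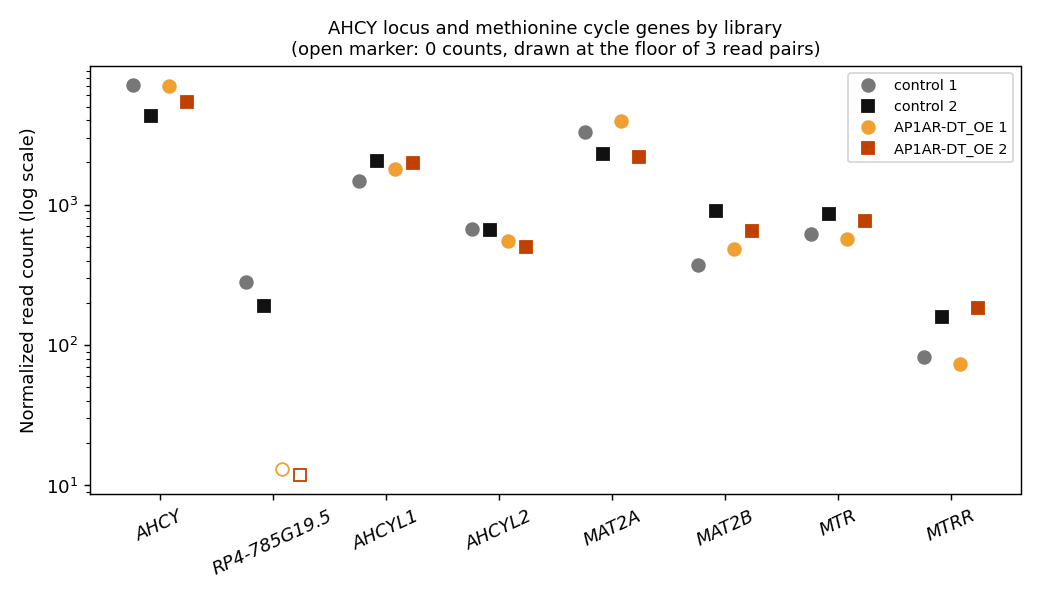
Normalized read counts (log axis) of the 8 genes in control 1 (grey circle), control 2 (black square), AP1AR-DT_OE 1 (orange circle) and AP1AR-DT_OE 2 (red square). RP4-785G19.5 is at 284 and 189 in control and at 0 in AP1AR-DT_OE, drawn as open markers at the floor of 13.2 and 11.9. For MAT2B, MTR and MTRR the squares lie above the circles, and for AHCY and MAT2A below them.

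Of the 6 genes tested, 0 were called by DESeq2 and 0 had an unadjusted p under 0.05, the lowest being 0.442 for AHCYL2. Over all genes 0.137% were called by DESeq2, so 0 of 6 is near the background. Only 196 of the 24014 genes had an unadjusted p under 0.05 by DESeq2. By edgeR 112 did, among the genes that passed its filter. The edgeR quasi-likelihood test called 0 genes, so AP1AR-DT was not called either and 0 calls among the 6 was fixed in advance. By that test 0 of the 6 had an unadjusted p under 0.05. The medians were close to that of the table: -0.02 over the 8 members and 0.10 without RP4-785G19.5, against -0.03 over all genes. The precision allows differences that were not detectable here. The 95% intervals of the fold change ran from 0.419 to 1.46 for AHCYL2, from 0.581 to 2.05 for AHCY and from 0.42 to 2.74 for MTRR.

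**Figure D3:**
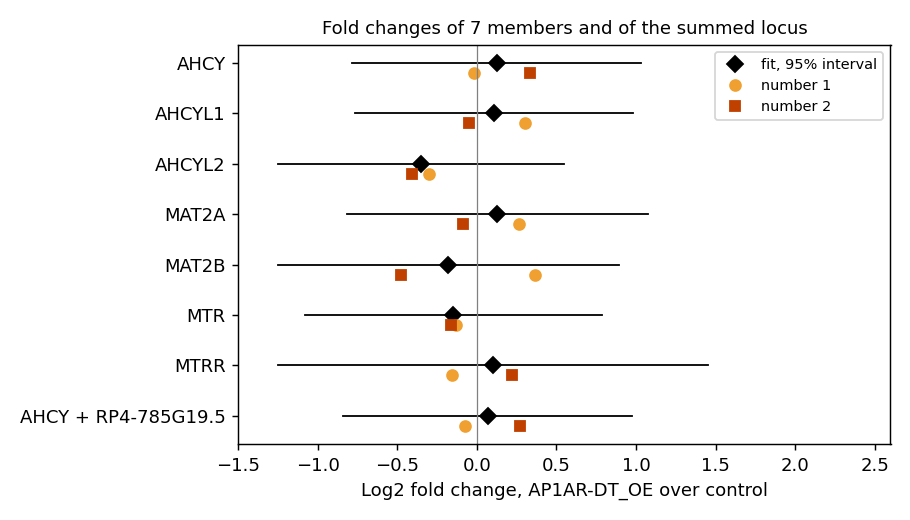
Log2 fold change of AP1AR-DT_OE over control for the 7 protein-coding members and for the sum of AHCY and RP4-785G19.5. Diamonds and lines are the DESeq2 estimate with its 95% interval, and circles and squares are the log2 ratios between the libraries with number 1 and number 2. All 8 intervals cross 0, and AHCYL2 and MTR have both ratios on one side.

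By level per length, AHCY led with a mean of 2762 normalized counts per kb over the 4 libraries, in the range 1979 to 3305. MAT2A followed at 1038 (770.2 to 1398), apart from AHCY in every library. AHCYL1 at 461 (372 to 516) and MAT2B at 291 (181 to 437) overlapped in range, though AHCYL1 was the higher in each library. RP4-785G19.5 stood at 593 and 395 per kb in the controls, within reach of AHCYL1. As 29.08% of its transcript is exon shared with AHCY and reads per exon were not analysed, this level may include reads of AHCY. AHCYL2 at 118 (98.5 to 134) was apart from its neighbours in this order. MTR at 66.5 (53.7 to 81.0) and MTRR at 38.2 (22.6 to 56.6) overlapped in range, though MTR was the higher in each library. Lengths were those of the canonical transcript in GENCODE, and the annotation used for counting is not given in the sources used here.

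The difference between libraries of a group was larger than the difference between the groups for most members, and it varied with GC content. From control 1 to control 2 the log2 ratio of normalized counts was 1.27 for MAT2B, 0.94 for MTRR, 0.47 for AHCYL1, 0.46 for MTR, -0.03 for AHCYL2, -0.51 for MAT2A, -0.59 for RP4-785G19.5 and -0.74 for AHCY. MAT2B has the lowest GC content of the members at 37.6% and AHCY the highest at 56.2%. Over the 8 members the ratio and GC content gave Pearson's r = -0.79 and Spearman's rho = -0.74. Between the AP1AR-DT_OE libraries it ran from -0.86 for MAT2A to 1.32 for MTRR, with r = -0.51 and rho = -0.64 over the 7 members counted there. The members share their libraries, and genes are not independent replicates. Over all 13284 genes that reached this mean level of 50 and had a GC value, rho was -0.77 and -0.65.

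With the GC trend taken out, the controls of MAT2B stood at 565 and 578 normalized counts and those of AHCY at 5939 and 5374, close to each other. The difference between the libraries of a group became larger for MAT2A, at 3803 and 2010 in the control libraries against 4303 and 2055 in AP1AR-DT_OE, and for RP4-785G19.5, at 299.8 and 183 in the controls. AHCYL2 was at 764 and 590.3 in the control libraries against 588 and 478 in AP1AR-DT_OE, still without overlap but by a narrow margin. Its log2 ratio between the libraries of a group went from -0.03 to -0.37 in control. In AP1AR-DT_OE it went from -0.14 to -0.30. The controls of AHCYL2 then lay further apart than the means of the groups. The sign of the Log2FC of MAT2B turned under this correction, to 0.03.

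**Figure D4:**
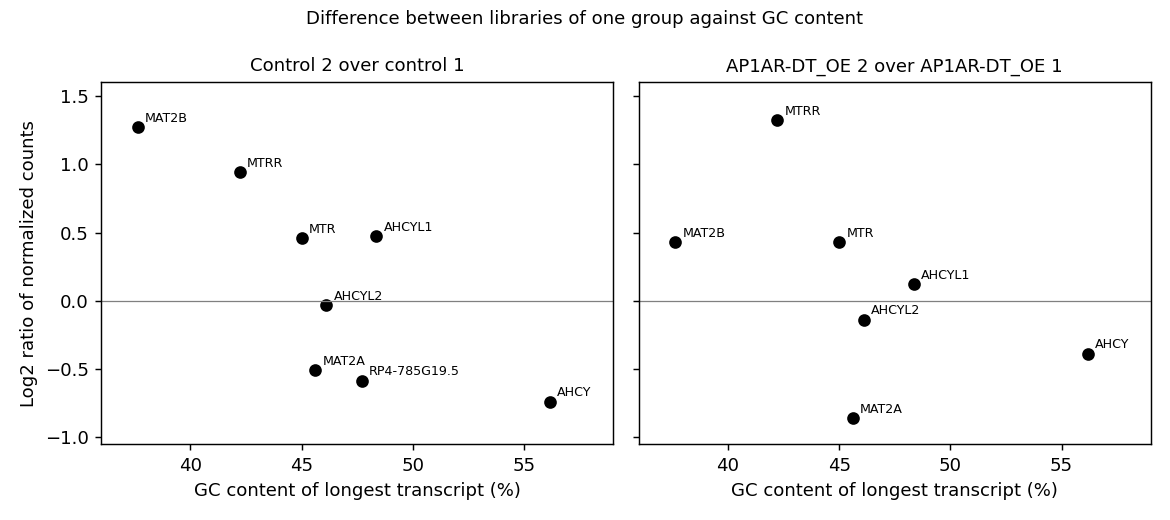
Log2 ratio of normalized counts between the libraries of a group against the GC content (%) of the longest transcript, for the 8 members in control (left) and the 7 with counts in AP1AR-DT_OE (right). Each point is a gene. MAT2B, at 37.6% GC, is highest in control at 1.27 and AHCY, at 56.2%, lowest at -0.74.

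Genes with a pattern like that of AHCY were sought by the smallest root mean square difference of log2(normalized count + 1) after each gene's own mean was subtracted, over the 4 libraries and 13297 genes. The 5 nearest were RASD2, PTGIS, PLIN3, PRPF6 and TMEM180, with differences between 0.00761 and 0.0140. PRPF6, a splicing factor gene, had 1941 and 1159 normalized counts in the control libraries against 1881 and 1438 in AP1AR-DT_OE. In all, 332 genes lay within 0.05 of AHCY. MAT2A was the nearest member at 0.189 and rank 3978, and RP4-785G19.5 was at rank 13269.

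The AHCY sequence has copies in the genome that could share its reads. The table lists 5 genes named as AHCY pseudogenes, which were chosen after their values were seen. AHCYP7 had 190 and 112 counts in the control libraries against 145 and 124 in AP1AR-DT_OE. AHCYP4 had 41, 40, 34 and 30. AHCYP2, AHCYP5 and AHCYP8 had at most 7 counts in any library. None was at 0 throughout a group.

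The wider pathway was read from 7 lists with 93 symbols, of which 87 were listed in the table. Without the 7 members among them, 80 remained, and 71 of these had a mean normalized count of at least 50. None of the 87 was called by DESeq2, with 1 at an unadjusted p under 0.05, and none of the 84 that passed the edgeR filter was called by edgeR, with 0 at an unadjusted p under 0.05. The median Log2FC of the 71 was 0.02, against -0.02 over the 13298 genes of that level. With 0.137% of all genes called by DESeq2, the count called by DESeq2 is near the background. Because edgeR called 0 genes anywhere, its 0 among the lists was fixed in advance. At an unadjusted p under 0.05 stood 196 genes of the whole table by DESeq2 and, among those that passed its filter, 112 by edgeR. Groups that did not overlap were found for 7 of the 71, or 9.86%, close to the 9.45% of all genes.

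In the methionine cycle list, 13 of 15 symbols were listed and 11 passed the level. The highest Log2FC was that of MAT2A. The lowest was that of METTL16, the RNA methyltransferase that acts on MAT2A transcripts, which had 8 counts in control 1, 1057 in control 2, 9 in AP1AR-DT_OE 1 and 9 in AP1AR-DT_OE 2. It was the 1 listed gene with at least 200 counts in a single library and at most 12 in the others, a pattern 16 genes of the table had. Its fitted Log2FC of -5.45 (SE = 2.10, DESeq2 adjusted p = 1) rested on control 2: without that library it was 0.06, and without control 1, where DESeq2 takes the lone control to vary like the other libraries, it was -6.44 with an adjusted p = 3.72e-18. METTL16 shares no exon sequence with a listed gene on its strand. ADK, which removes the adenosine that AHCY releases, had 68 and 447 counts in control, against 76 and 266 in AP1AR-DT_OE.

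In the cobalamin list, 11 of 12 symbols were listed, 6 of the 9 at the level were higher and 3 lower, and 0 were called. LMBRD1, which serves the export of cobalamin from lysosomes, had the highest Log2FC at 0.55 (SE = 0.73), and MMADHC, which directs cobalamin to its enzymes, the lowest at -0.15 (SE = 0.74). Among transsulfuration and glutathione genes, 5 of the 9 at the level were higher and 4 lower. CTH, which makes cysteine from cystathionine, had a Log2FC of 0.40 (SE = 0.80). CHAC1, which breaks down glutathione, had 444 and 533 normalized counts in the control libraries against 424 and 309 in AP1AR-DT_OE (Log2FC = -0.42, SE = 0.49).

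Among 19 salvage and polyamine genes, all at the level, 9 were higher and 10 lower, from MTAP, which recovers methionine from methylthioadenosine (Log2FC = -0.37, SE = 0.51), to SRM, the spermidine synthase gene (Log2FC = 0.22, SE = 0.45). The 8 methionine transporter genes were 4 higher and 4 lower. SLC7A6 had 1126 and 1159 normalized counts in the control libraries against 621 and 1109 in AP1AR-DT_OE (Log2FC = -0.40, SE = 0.48), and SLC7A8 had the highest Log2FC at 0.16. Of the methyltransferases, 11 of 17 at the level were higher and 6 lower. NNMT, which methylates nicotinamide, had 563 and 592 normalized counts in the control libraries against 677 and 801 in AP1AR-DT_OE (Log2FC = 0.36, SE = 0.46). TPMT, which methylates thiopurines, had the lowest Log2FC at -0.43 (SE = 0.85).

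Of the partners of AHCYL1, 6 of 8 symbols were listed and 5 passed the level, with 2 higher and 3 lower. ITPR2, an inositol trisphosphate receptor gene, had 129 and 109 normalized counts in the control libraries against 62.5 and 71.5 in AP1AR-DT_OE, so both AP1AR-DT_OE libraries lay under both controls (Log2FC = -0.82, SE = 0.65, DESeq2 adjusted p = 1). With the GC trend taken out, ITPR2 was at 172 and 79.9 in control against 77.7 and 61.1 in AP1AR-DT_OE. The groups were then apart by a narrow margin only. SLC26A6, an anion exchanger gene, had the highest Log2FC at 0.05. None of the genes of these 6 lists was called, and none had an unadjusted p under 0.05.

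**Figure D5:**
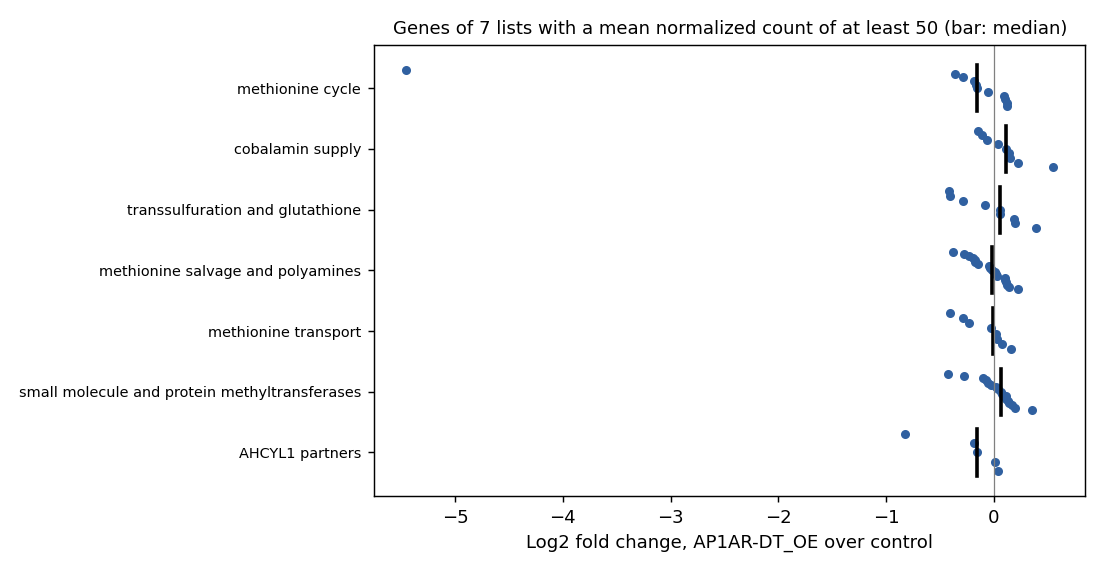
Log2 fold change of AP1AR-DT_OE over control for the genes of 7 lists at or above a mean normalized count of 50, 1 point a gene, with the median as a bar. The single point at -5.45 in the methionine cycle list is METTL16, and the other points lie between -0.82 and 0.55.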

How the data were processed

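RNA of 4 SK-N-SH libraries was sequenced, 2 per group, and each library was assigned by its title. According to the methods of the study, the authors aligned reads to hg19 with HISAT2, ran StringTie and extracted read counts with its Python script. The submitters' processing notes also name TopHat2 2.0.4, SAMtools, HTSeq, Cuffdiff and edgeR 2.6.12. Values in the deposited table are unnormalized whole-number counts. Strand use in counting is not given in the sources used here. The table prints GRCh38 positions. Its columns of fold changes and p-values from the authors' own tests were not used.

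Counts of 24014 genes were fitted with DESeq2 1.42.0 in R 4.3.3 (median-of-ratios size factors, two-sided Wald test, Benjamini-Hochberg adjustment, default independent filtering). The call was an adjusted p under 0.05. The edgeR 4.0.16 quasi-likelihood test was an alternative. GC content was that of the longest GENCODE v44 transcript. Its trend was taken out per library by lowess (span 0.3). The members and lists were chosen with earlier results of these data known. Genes named were the 8 members, neighbours within 200 kb of AHCY, the highest and lowest Log2FC of each list at a mean normalized count of at least 50, the 5 genes most like AHCY, and those marked as chosen later or given for context. Depth was 21988065 to 26184599 counts per library.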

Additional observations from a re-analysis of the deposited data

How the results depend on the processing

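The number of genes called over the table, 33, became 0 with the edgeR test (112 at an unadjusted p under 0.05), 55 after GC correction, 59 when the GC correction was combined with the replicate block, and 15 from counts divided by 4. With each library left out in turn it ranged from 45 to 90, and the number called in the pathway lists from 0 to 1, the 1 being METTL16 without control 1. None of the 6 tested members and no neighbour of AHCY was called under any alternative run. For the edgeR run this was fixed in advance, because it called no gene at all. Of 60 values of these 6 members with all libraries kept, 58 had the same direction and 2 were reversed, both for MAT2B. Its Log2FC of -0.18 became 0.025 with GC correction and 0.014 with GC correction and the block. The likelihood-ratio test, the run without independent filtering and the run with summed rows leave these fold changes unchanged. The same direction in those runs was therefore fixed in advance.

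Leaving out each library in turn gave a Log2FC from -0.11 to 0.38 for AHCYL1, from -0.37 to 0.48 for MAT2A, from -0.68 to 0.60 for MAT2B, from -0.40 to 0.11 for MTR, from -0.72 to 0.66 for MTRR and from -0.43 to -0.30 for AHCYL2. It was from -0.19 to 0.54 for AHCY and from -0.24 to 0.48 for its sum with RP4-785G19.5. The libraries share replicate numbers, which no label ties to a batch. Deviations from the group means correlated at 0.49 over 13298 genes, with 2 pairs. With the replicate block the sum gave 0.10, AHCYL2 -0.36 and MAT2B -0.06, and 37 genes were called over the table. The causes were not tested. With 2 libraries a group and, as taken here, about 4 counts a read pair, precision is lower than the counts would give.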
